A study of Mus musculus with 22 samples.

Results

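Hemoglobin transcripts were followed in mammary tissue as a possible sign of the blood it held. The 5 genes were taken by symbol from the deposited values: Hba-a1 and Hba-a2, which encode the adult alpha chains of hemoglobin, Hbb-bs and Hbb-bt, which encode its adult beta chains, and Alas2, the red cell form of the enzyme that starts heme synthesis. They are 5 of the 52526 distinct symbols in the files, and all 5 were above the detection floor in each of the 22 mice. The RNA came from the left 4th mammary tissue of female C57BL/6J mice. They were 7 to 8 weeks old at the start and were then housed for 2 weeks with access to a wheel or, as controls, to its hub alone. Every mouse then received 100000 EO771 cells, a mammary cancer line of the same strain carrying firefly luciferase, in that fat pad, and the tissue was collected 24 hours later. Liposomes were given into a vein 24 hours before the cells and again with them, holding either PBS buffer or clodronate, which kills phagocytes that take it up. The groups were 6 control mice and 6 wheel mice with PBS liposomes, and 5 control mice and 5 wheel mice with clodronate liposomes, so every group carried engrafted cancer cells and liposomes, and none was untreated. Each library came from 1 mouse.

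Adult hemoglobin joins a pair of alpha chains to a pair of beta chains, each holding a heme group whose iron binds oxygen. Red cells build up globin and heme in the bone marrow, then lose their nucleus, and young red cells in the circulation, the reticulocytes, still hold globin RNA. In a solid tissue the globin transcripts are therefore commonly read as a sign of the blood left in the vessels at dissection, although cells other than red cells can make small amounts. Macrophages of the spleen and liver take up old red cells and recycle their heme iron. In bulk tissue, more red cells and more RNA per red cell cannot be told apart.

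Libraries were read from the 3′ ends of transcripts, and the values are CPM, the reads of a gene scaled to all reads of its library, with everything below 1 CPM raised to 1. The libraries held 13256467 to 20484578 reads (median 16293026), with 57.4% to 64.6% of them on genes, and 1 CPM stood for 13 to 20 reads. The fewest reads were 2683 for Hba-a1, 2389 for Hba-a2, 7698 for Hbb-bs, 1341 for Hbb-bt and 51 for Alas2, for which counting error alone is 14.0% at that depth and 3.62% at its highest count of 765. As a check of the tissue, adipocyte markers summed to between 15640 and 38030 CPM in the 22 mice. Lymphocyte markers (12 genes) had a mean log2(CPM + 1) above 3 in 5 mice (control PBS mouse 2, wheel PBS mouse 3 and wheel clodronate mice 3, 4 and 5), from 4.47 to 5.88, and from 1.00 to 1.42 in the other 17. Comparisons were therefore also made without those 5 mice, which leaves mice 1 and 2 alone in the wheel clodronate group. The labels place all mice in experiment 1.

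The alpha genes lie on chromosome 11 (GRCm38, GENCODE M21), Hba-a1 (ENSMUSG00000069919.7) from 32283511 to 32284465 and Hba-a2 (ENSMUSG00000069917.7) from 32296489 to 32297298, both on the plus strand with 3 exons. The beta genes lie on chromosome 7 on the minus strand, Hbb-bs (ENSMUSG00000052305.6) from 103826534 to 103828096 and Hbb-bt (ENSMUSG00000073940.3) from 103812524 to 103813996, also with 3 exons. Alas2 (ENSMUSG00000025270.13) spans 150547375 to 150570638 on the plus strand of chromosome X, with 11 exons. The copies share much of their sequence. Of the 351 words of 50 bases in the last 400 bases of the transcript, 85.8% of those of Hba-a1 also occurred in Hba-a2, 81.2% of those of Hba-a2 occurred in Hba-a1, 54.7% of those of Hbb-bs occurred in Hbb-bt and 54.4% of those of Hbb-bt occurred in Hbb-bs. Alas2 shared 0 words with any other gene. Reads that matched several places were set aside in the files (16.6% to 19.9% of a library), so the split of reads within the alpha pair, and the level of each alpha gene, is uncertain. The beta genes differ at the very end, where the last 159 words of Hbb-bs and the last 160 of Hbb-bt were not shared, against 0 for Hba-a1 and 16 for Hba-a2. How many reads of the beta genes fell upstream of that stretch is not known here.

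The 250 bases before the RefSeq transcript start are shown for Hba-a1, Hbb-bs, Hbb-bt and Alas2, so that these stretches can be compared. The RefSeq starts differ from the GENCODE positions given above, and each stretch runs into the gene as GENCODE places it. A link between motifs in these stretches and the levels in the mice was not tested. Capitals mark 4 kinds of short motif on either strand: GATA words (AGATAA and TGATAA, and both with a final G), the CACCC box, the CCAAT box and the TATAA box.
Hba-a1, chr11:32283422-32283671, plus strand, GRCm38.p6: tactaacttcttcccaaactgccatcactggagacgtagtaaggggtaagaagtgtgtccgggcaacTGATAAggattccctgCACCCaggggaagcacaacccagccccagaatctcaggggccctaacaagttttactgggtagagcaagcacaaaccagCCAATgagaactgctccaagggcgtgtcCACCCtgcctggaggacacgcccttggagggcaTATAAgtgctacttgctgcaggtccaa
Hbb-bs, chr7:103827929-103828178, minus strand, GRCm38.p6: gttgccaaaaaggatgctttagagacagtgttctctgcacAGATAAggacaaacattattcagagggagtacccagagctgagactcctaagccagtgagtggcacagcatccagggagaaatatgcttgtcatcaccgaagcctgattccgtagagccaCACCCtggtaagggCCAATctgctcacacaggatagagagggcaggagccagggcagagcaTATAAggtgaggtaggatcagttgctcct
Hbb-bt, chr7:103813924-103814173, minus strand, GRCm38.p6: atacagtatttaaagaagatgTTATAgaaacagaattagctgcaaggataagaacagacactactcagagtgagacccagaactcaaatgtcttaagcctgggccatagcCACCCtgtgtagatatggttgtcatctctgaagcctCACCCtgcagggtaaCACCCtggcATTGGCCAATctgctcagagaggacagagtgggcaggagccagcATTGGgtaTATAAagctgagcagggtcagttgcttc
Alas2, chrX:150547167-150547416, plus strand, GRCm38.p6: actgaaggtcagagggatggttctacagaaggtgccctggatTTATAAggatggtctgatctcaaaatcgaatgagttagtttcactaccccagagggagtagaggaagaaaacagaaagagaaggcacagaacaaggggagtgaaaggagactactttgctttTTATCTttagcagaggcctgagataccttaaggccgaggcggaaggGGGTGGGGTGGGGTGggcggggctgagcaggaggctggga
The stretch before Hba-a2 (chr11:32296242-32296491) is the same as that of Hba-a1 over all 247 bases that overlap at a shift of 3, whereas those of the beta genes were identical at 127 of 249 bases. A GATA word, the kind bound by the red cell factor GATA1, occurred once each before Hba-a1 (starting 183 bases upstream), Hba-a2 (186), Hbb-bs (210) and Alas2 (86), and was not found before Hbb-bt. CACCC, the kind bound by KLF1, occurred before all 5 genes, in 1 copy before Hbb-bs, 2 before each alpha gene and 3 before Hbb-bt and Alas2. CCAAT occurred before the 4 globin genes and not before Alas2. TATAA lay 27, 29 and 28 bases upstream of Hba-a1, Hbb-bs and Hbb-bt, and 207 upstream of Alas2. In the same 250 bases before 32851 RefSeq promoters, a GATA word occurred in 26.5%, CACCC in 52.0%, CCAAT in 33.9% and TATAA in 22.8%. A CCAAT in 1 direction abuts another in the opposite direction before Hbb-bt, and the TATAA matches before Alas2 overlap. Overlapping and opposite-strand matches are each counted.

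Hbb-bs was the most abundant of the 5 genes in every mouse and stood among the 100 highest genes of all 22, at ranks 13 to 61. With 3′ libraries, read number does not grow with transcript length, so levels of different genes can be set side by side, apart from the reads lost to near-identical copies. Across the 22 mice the level averaged 1347 CPM ± 696 (SD, n = 22) for Hbb-bs, 555 ± 282 for Hba-a1, 370 ± 183 for Hba-a2, 265 ± 158 for Hbb-bt and 20.2 ± 12.5 for Alas2. Hba-a1 was among the 100 highest genes in 14 mice, Hba-a2 in 6, Hbb-bt in 3 and Alas2 in 0. The 4 globin genes together gave 1126 to 5714 CPM (a 5.07-fold range, median 2229), or 0.192% to 0.939% of the reads assigned to genes.

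**Figure D1:**
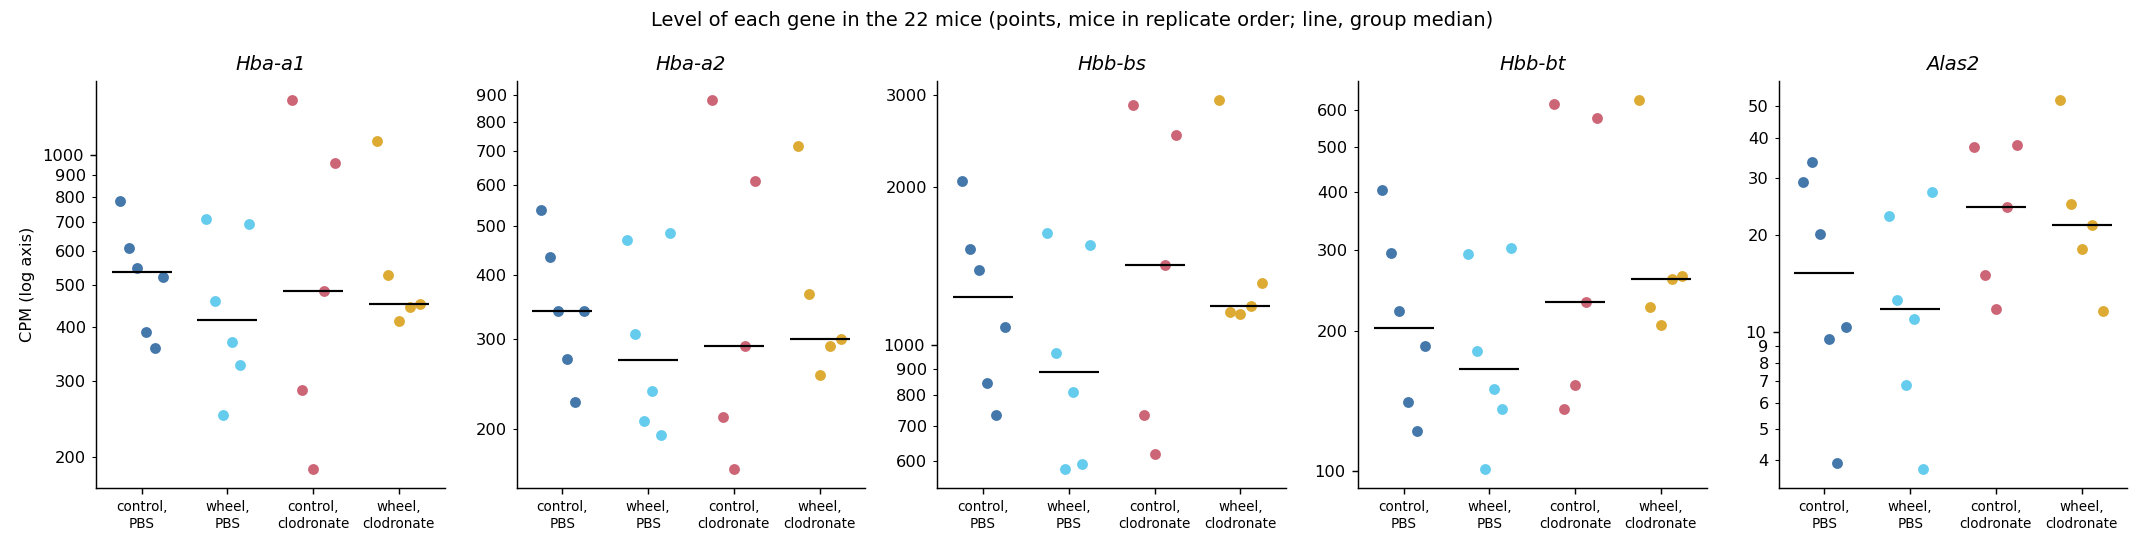
CPM of each hemoglobin gene and of Alas2 (vertical, log axis) in each of the 22 mice (points, in replicate order) by group (horizontal), with the group median as a line. In each panel the groups overlap, and control clodronate mouse 1 and wheel clodronate mouse 1 are among the 3 highest clodronate mice.

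Among beta chains, Hbb-bs in control PBS mice ran from 735 to 2057 CPM with a median of 1235, and in wheel PBS mice from 578 to 1635 with a median of 887. In control clodronate mice it was 2865, 733, 619, 1418 and 2516 CPM in mice 1 to 5, and in wheel clodronate mice it was 2938, 1156, 1145, 1185 and 1310. The groups overlapped, with control clodronate mice 1 and 5 and wheel clodronate mouse 1 above all 12 PBS mice. Hbb-bt, the beta gene with fewer reads, had the same 3 mice on top. It ran from 122 to 403 CPM (median 204) in control PBS mice and from 101 to 302 (median 166) in wheel PBS mice. Values were 619, 136, 153, 232 and 577 CPM in control clodronate mice and 633, 225, 206, 260 and 263 in wheel clodronate mice. Wheel clodronate mice other than mouse 1 lay close together, within the range of the PBS mice.

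For alpha chains, Hba-a1 ran from 358 to 784 CPM (median 535) in control PBS mice and from 250 to 712 (median 414) in wheel PBS mice. Control clodronate mice had 1346, 286, 187, 485 and 959 CPM, a 7.19-fold range, and wheel clodronate mice had 1078, 529, 414, 446 and 453. The highest and the lowest mouse of the whole series were thus both control clodronate mice. Hba-a2 ran from 226 to 537 CPM (median 340) in control PBS mice and from 195 to 484 (median 272) in wheel PBS mice. It was 883, 211, 167, 290 and 613 CPM in control clodronate mice and 717, 367, 255, 291 and 300 in wheel clodronate mice. The order of mice was close to that of Hba-a1.

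Alas2 is the heme enzyme of the red cell series and was far lower than the globins, with the widest relative range. It ran from 3.92 to 33.5 CPM (median 15.2) in control PBS mice and from 3.74 to 27.1 (median 11.7) in wheel PBS mice. Control clodronate mice had 37.3, 14.9, 11.7, 24.3 and 38.1 CPM, and wheel clodronate mice had 52.6, 24.8, 18.1, 21.5 and 11.6. Of the 12 PBS mice, 6 lay below every clodronate mouse, and 3 clodronate mice lay above every PBS mouse.

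The first question was whether the running wheel changed the levels of these transcripts. No hemoglobin gene passed the test in either liposome group. With PBS liposomes, the log2(CPM + 1) level in wheel mice minus that in control mice was -0.25 (SE 0.38) for Hba-a1, -0.22 (0.35) for Hba-a2, -0.35 (0.38) for Hbb-bs, -0.22 (0.39) for Hbb-bt and -0.28 (0.48) for Alas2, with limma adjusted p-values of 0.987 to 0.991. Without the 5 mice of high lymphocyte markers the difference turned to 0.042 for Hbb-bt and 0.092 for Alas2 and was -0.14 for Hbb-bs. The 95% interval for Hbb-bs ran from -1.13 to 0.43, a fold from 0.457 to 1.35. Called genes were 0 of 15138 at an adjusted p under 0.05 (0%) and 744 at an unadjusted p under 0.05 (4.91%), none of the latter among the 5.

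With clodronate liposomes the same difference was 0.10 (SE 0.42) for Hba-a1, 0.015 (0.39) for Hba-a2, 0.076 (0.41) for Hbb-bs, 0.044 (0.42) for Hbb-bt and -0.0089 (0.52) for Alas2, with adjusted p-values of 0.969 to 0.998. Their 95% intervals reached from -1.09 to 1.07 for Alas2 and from -0.78 to 0.81 for Hba-a2. Here 1 of 15138 genes passed the adjusted p (0.00661%) and 1579 the unadjusted p (10.4%), and again none was a hemoglobin gene. Lymphocyte markers were high in 3 of the 5 wheel clodronate mice. Without the 5 mice of high lymphocyte markers, mice 1 and 2 alone remain in that group, and mouse 1 was its highest for each gene. The differences were then 0.57 for Hba-a1, 0.53 for Hba-a2, 0.44 for Hbb-bs, 0.43 for Hbb-bt and 0.64 for Alas2. Their limma adjusted p-values were 0.971 to 0.984. Leaving out single mice turned the direction of all 5 genes, that of Hba-a1 ranging from -0.26 to 0.45. Averaged over both liposomes, a contrast added after the data were seen, the difference ran from -0.14 (Alas2, SE 0.35) to -0.07 (Hba-a1, SE 0.28), with 0 genes called at the adjusted p (0%) and 1224 at the unadjusted p (8.09%), none of them one of the 5. Without the 5 mice of high lymphocyte markers these averages had the opposite sign, from 0.15 for Hbb-bs to 0.37 for Alas2, with adjusted p-values of 0.911 to 0.963.

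The next question was whether clodronate liposomes changed the transcript levels. In control mice, the level with clodronate minus that with PBS was -0.026 (SE 0.40) for Hba-a1, 0.038 (0.37) for Hba-a2, 0.19 (0.40) for Hbb-bs, 0.42 (0.41) for Hbb-bt and 0.64 (0.50) for Alas2, with limma adjusted p-values of 0.833 to 0.992. Scaling to the upper quartile, to assigned reads or to assigned reads other than globins turned the sign for Hba-a1. Of 15138 genes, 0 passed the adjusted p (0%) and 1058 the unadjusted p (6.99%), with none of the 5 among them. In wheel mice, the differences were 0.32 (SE 0.40) for Hba-a1, 0.27 (0.37) for Hba-a2, 0.61 (0.40) for Hbb-bs, 0.69 (0.41) for Hbb-bt and 0.91 (0.50) for Alas2, a fold of 1.88 with a 95% interval from 0.916 to 3.86. Adjusted p-values were 0.505 to 0.844. Called genes were 1 at the adjusted p (0.00661%) and 1759 at the unadjusted p (11.6%), none of the 5 among them. Without the 5 mice of high lymphocyte markers the difference for Alas2 was 1.42, with an adjusted p of 0.569 in limma. That fit keeps mice 1 and 2 alone in the wheel clodronate group. Without wheel clodronate mouse 1, the difference for Alas2 was 0.62, that for Hbb-bs 0.35 and that for Hba-a1 0.073.

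The interaction, the wheel difference with clodronate minus that with PBS, was 0.35 (SE 0.56) for Hba-a1, 0.23 (0.52) for Hba-a2, 0.43 (0.56) for Hbb-bs, 0.27 (0.57) for Hbb-bt and 0.27 (0.71) for Alas2. The adjusted p-values from limma ran from 0.913 to 0.977. It was called in 0 of 15138 genes at the adjusted p (0%) and in 1147 at the unadjusted p (7.58%), and in none of the 5. Averaged over both activities, a contrast also added after the data were seen, clodronate mice stood above PBS mice by 0.15 (SE 0.28) for Hba-a1, 0.16 (0.26) for Hba-a2, 0.40 (0.28) for Hbb-bs, 0.55 (0.29) for Hbb-bt and 0.78 (0.35) for Alas2. Alas2, at 1.71-fold with a 95% interval from 1.03 to 2.85, had an unadjusted p of 0.0392 in limma and an adjusted p of 0.447, and did not pass. Over all 15138 genes, 31 passed the adjusted p (0.205%), all lower with clodronate, and 1579 the unadjusted p (10.4%), so 1 of 5 members stood where 10.4% of all genes did. The median difference over all genes was -0.042.

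**Figure D2:**
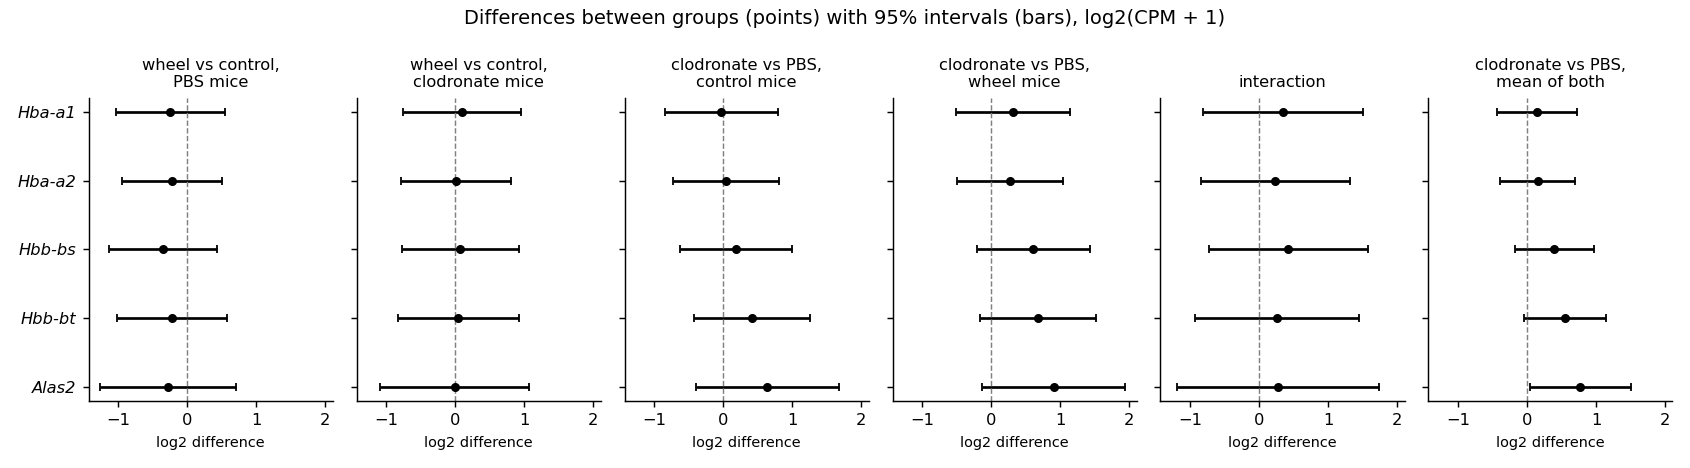
Differences between groups in log2(CPM + 1) (horizontal; points, with 95% intervals from limma as bars) for each gene (vertical) in the 5 comparisons and in clodronate against PBS averaged over both activities. All intervals cover 0 except that of Alas2 in the last panel, 0.042 to 1.51, whose adjusted p is 0.447.

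The spread between mice of a group was large for these genes. The residual SD of log2(CPM + 1) was 0.73 for Hba-a1, 0.68 for Hba-a2, 0.71 for Hbb-bs, 0.75 for Hbb-bt and 0.91 for Alas2. Among the 797 genes with a mean of at least 100 CPM the median SD was 0.305, and the 4 globins exceeded 90.3% to 91.5% of them. Counting error was at most 2.73% for a globin gene.

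The 5 genes rose and fell together in single mice. As deviations of log2(CPM + 1) from the group mean, Hba-a1 and Hba-a2 had Pearson r = 0.981 and Spearman rho = 0.981 over the 22 mice. Hbb-bs and Hbb-bt had r = 0.977 and rho = 0.971. The copies within those pairs share sequence, whereas the words of 50 bases found in 1 alpha gene were found in no beta gene. Hba-a1 and Hbb-bs had r = 0.972 (rho = 0.9752), with 0.951 the lowest r between an alpha and a beta gene. Alas2, which is a separate gene on another chromosome, followed them with r from 0.799 (Hba-a1, rho = 0.883) to 0.871 (Hbb-bs, rho = 0.853). The two-sided permutation p of r was 1e-05 for all 10 pairs, before and after Benjamini-Hochberg adjustment, the smallest that 100000 permutations give. Without the 2 mice farthest from the median of the gene named first, r was 0.950 to 0.977 between globins and 0.832 to 0.863 with Alas2. Within the 6 control PBS mice r was 0.891 to 0.991 over the 10 pairs, and within the 6 wheel PBS mice 0.880 to 0.998, and without the 5 mice of high lymphocyte markers the lowest was 0.809. The clodronate groups are too small for a value of their own. All 5 genes come from the same libraries and share their scale.

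**Figure D3:**
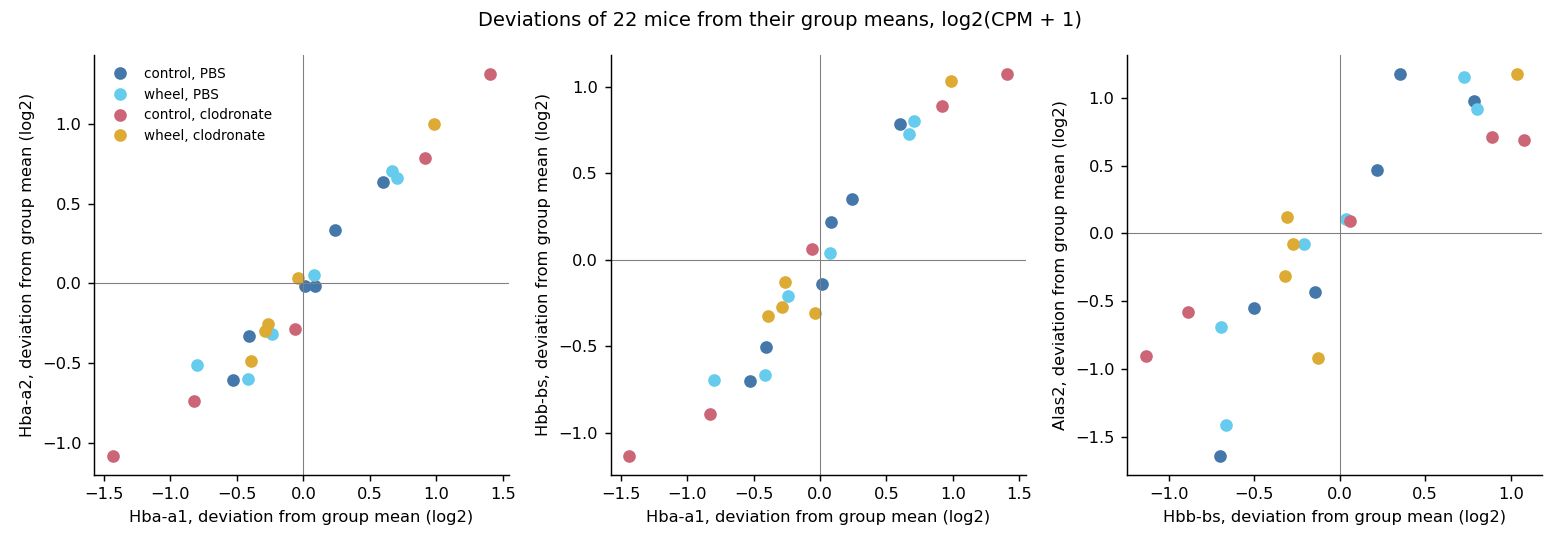
Deviation of each of the 22 mice (points, coloured by group) from its group mean in log2(CPM + 1), for Hba-a2 against Hba-a1, Hbb-bs against Hba-a1 and Alas2 against Hbb-bs. The globin points lie along a line (r = 0.981 and 0.972), and those of Alas2 scatter more widely around theirs (r = 0.871).

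Ratios between the globin genes varied much less than their levels. They are given as descriptions chosen after the values were seen, with no test. Hba-a1 / Hba-a2 was 1.12 to 1.68 with a coefficient of variation of 9.02% over the 22 mice, against 50.9% for Hba-a1 itself. Hbb-bs / Hbb-bt was 4.04 to 6.27 (11.9%). The summed alpha genes over the summed beta genes gave 0.458 to 0.718 (14.0%), which is a ratio of assigned reads and not of molecules, since the alpha copies share more of their 3′ ends.

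The alpha to beta ratio lay lower in most clodronate mice. It was 0.537 to 0.682 (median 0.624) in control PBS mice and 0.612 to 0.718 (median 0.652) in wheel PBS mice. Control clodronate mice had 0.640, 0.572, 0.458, 0.470 and 0.508, and wheel clodronate mice had 0.503, 0.648, 0.495, 0.510 and 0.478. Of the 10 clodronate mice, 7 were below the lowest PBS mouse, and 6 of the 12 PBS mice were above the highest clodronate mouse. The 7 comprise 3 control and 4 wheel mice. By single genes, the median of clodronate mice was 0.825 times that of PBS mice for Hba-a1 / Hbb-bs, 0.754 for Hba-a1 / Hbb-bt, 0.790 for Hba-a2 / Hbb-bs and 0.743 for Hba-a2 / Hbb-bt. Within the pairs it was 1.01 for Hba-a1 / Hba-a2 and 0.877 for Hbb-bs / Hbb-bt. These ratios reuse the same genes in the same mice, so they are no separate evidence beside the summed ratio. How often ratios of other genes separate the mice as far was not examined. The share of reads that matched several places, which the near-identical copies feed, was 16.6% to 18.8% of reads in PBS mice and 16.9% to 19.9% in clodronate mice, and its part in the ratio was not tested.

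Alas2 per 1000 CPM of the 4 globins was 2.72 to 11.7 (median 6.72) in control PBS mice and 3.00 to 8.93 (median 6.77) in wheel PBS mice. Control clodronate mice had 6.54, 10.9, 10.4, 10.0 and 8.17, and wheel clodronate mice 9.79, 10.9, 8.96, 9.86 and 4.97. This ratio varied more than those between globins, with a coefficient of variation of 32.7% and a 4.30-fold range over the 22 mice, and in control PBS mice its 45.5% was above the 35.9% of the globin sum. The groups overlapped, with 3 PBS mice below every clodronate mouse and 0 clodronate mice above every PBS mouse.

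**Figure D4:**
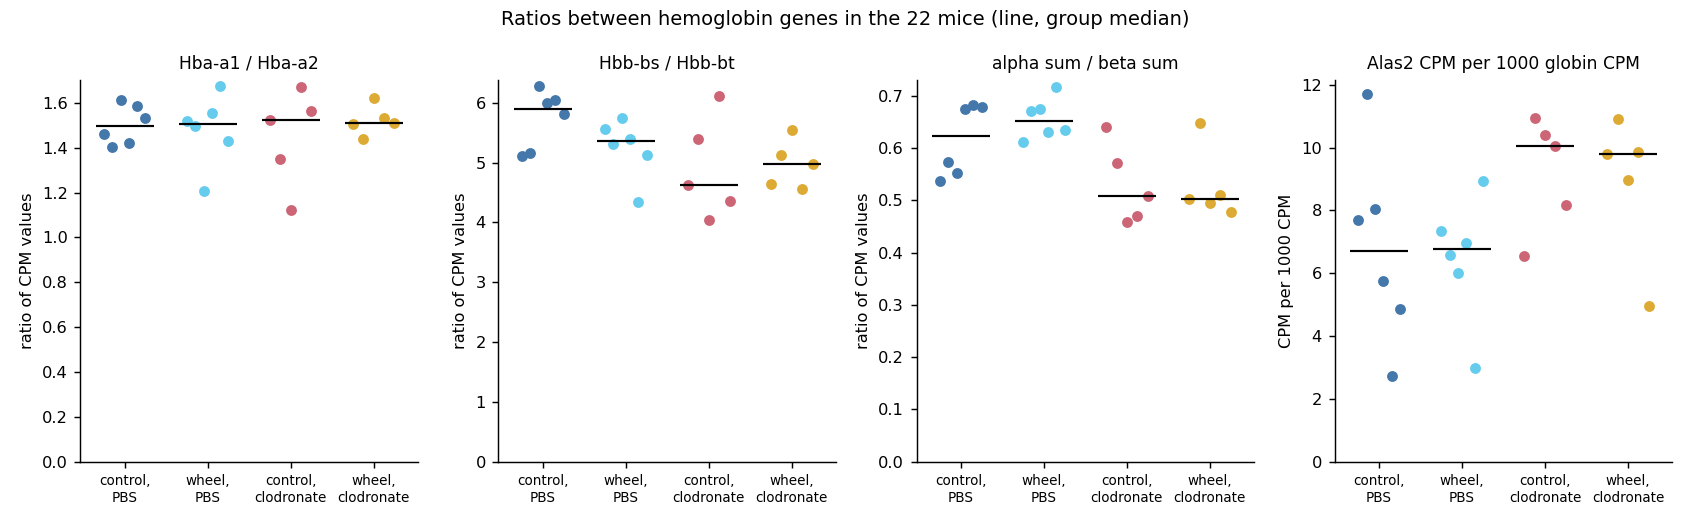
Ratios in each of the 22 mice (points) by group, with the group median as a line: Hba-a1 / Hba-a2, Hbb-bs / Hbb-bt, summed alpha over summed beta, and Alas2 CPM per 1000 globin CPM. The alpha to beta ratio is below the lowest PBS mouse, 0.537, in 7 of 10 clodronate mice, while Hba-a1 / Hba-a2 stays between 1.12 and 1.68.

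Other genes of the red cell series were mostly at or near the floor. Of the other globins (9 genes), the embryonic chains Hbb-bh1, Hbb-y, Hbb-bh2 and Hba-x, and also Hbq1a and neuroglobin (Ngb), were at the floor in all 22 mice, and Hbq1b was above it in 1. Myoglobin (Mb), the oxygen store of muscle, averaged 30.1 CPM and was above the floor in 19 mice, and cytoglobin (Cygb), found in many connective tissue cells, averaged 101. Mb had r = -0.47 with the mean globin deviation and Cygb r = 0.36. Skeletal muscle markers summed to 24.1 to 29250 CPM, so muscle content also differed between mice.

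Of the erythroid regulators, the master factors Gata1 and Klf1 were above the floor in 1 mouse each, and Nfe2 and Gfi1b in 0. Red cell membrane genes gave the same picture, with the anion exchanger Slc4a1 above the floor in 5 mice, and Epb42, Rhag, Rhd and Kel in 0. The tested genes of these lists with the highest means were Lmo2 (11.4 CPM), Zfpm1 (10.5) and Tal1 (2.65) among regulators, and Epb41 (44.8), Ank1 (9.15) and Dmtn (7.48) among membrane genes, several of which other tissues also use. The mean of Ank1 rests on control clodronate mouse 2, with 113 CPM against a median of 1.16 over the 22 mice, and Mb was also highest in that mouse (256 CPM, median 3.91). Among late red cell proteins Mkrn1 averaged 33.1 CPM, the transferrin receptor Tfrc 20.8 and Bpgm, which makes the regulator of oxygen binding in red cells, 14.4. Their r with the mean globin deviation was 0.36, -0.20 and 0.49. The heme synthesis genes that all cells use were led by Alas1 (103 CPM, r = 0.56), Fech (32.9, r = 0.26) and Urod (32.3, r = 0.46).

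In the 5 comparisons 0 genes of these 5 lists passed the adjusted p in limma, out of 2 other globins, 11 heme synthesis genes, 4 erythroid regulators, 6 red cell membrane genes and 8 late red cell genes tested. At an unadjusted p under 0.05, of these 31 genes 2 were called for the wheel with PBS, where 4.91% of all genes were, 3 for the wheel with clodronate (10.4% of all genes), 2 for clodronate in control mice (6.99%), 8 for clodronate in wheel mice (11.6%) and 4 for the interaction (7.58%). With clodronate in wheel mice, 8 of 8 late red cell genes had a higher mean (median difference 0.37, against 0.000195 over all genes) and 3 of them an unadjusted p under 0.05, beside 11.6% of all genes. In the same comparison 12 of 12 lymphocyte markers were higher (median difference 2.19), 11 of them at an unadjusted p under 0.05, and 3 of the 5 wheel clodronate mice are those of high lymphocyte markers. Slc14a1, a urea transporter and 1 of the 3 late red cell genes, named after its values were seen, was highest in wheel clodronate mouse 3 (9.30 CPM), 1 of those mice. The part of these mice in the late red cell values was not tested. Heme synthesis genes were higher in 4 and lower in 7 (median -0.15). With the wheel and PBS liposomes, 4 of the 8 late red cell genes were higher (median -0.026, against -0.085 over all genes).

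Across mice, the mean globin level was set against 14 gene lists. Adipocyte markers were the list most closely tied to it, with Pearson r = 0.658 (two-sided permutation p = 0.00104, adjusted over 14 lists 0.0146) and Spearman rho = 0.687 (p = 0.00068, adjusted 0.00952) over 22 mice. All 10 adipocyte genes had r above 0, from 0.24 for leptin (Lep) to 0.80 for resistin (Retn). Without the 2 mice of most distant globin level r was 0.602, and without the 5 mice of high lymphocyte markers 0.667 (adjusted permutation p = 0.0277). With the group means left in, r was 0.455 and did not pass (adjusted permutation p = 0.234). Adipocyte markers summed to 23240 to 36900 CPM in control PBS mice, 23910 to 38030 in wheel PBS mice, 15640 to 37750 in control clodronate mice and 19210 to 28390 in wheel clodronate mice.

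Late red cell proteins came next, with r = 0.545 (permutation p = 0.00894, adjusted 0.0626) and rho = 0.518 (p = 0.0149, adjusted 0.104), and did not pass. Without the 2 mice of most distant globin level r was 0.591, and without the 5 mice of high lymphocyte markers it was 0.782 (adjusted permutation p = 0.00392). The other 12 lists did not pass. Their r was 0.438 for heme synthesis, 0.404 for blood vessel endothelium, 0.368 for hemoglobin and heme clearance, 0.00089 for macrophages, -0.01 for mammary epithelium, -0.06 for erythroid regulators, -0.19 for platelets, -0.19 for red cell membrane, -0.21 for neutrophils, -0.30 for lymphocytes, -0.39 for other globins and -0.42 for skeletal muscle, with adjusted permutation p-values from 0.172 to 0.997. The value for mammary epithelium averages genes of opposite sign, from -0.39 for Krt14 to 0.50 for Csn3, with 5 of 8 tested genes above 0. Without the 5 mice of high lymphocyte markers, skeletal muscle had r = -0.611 (adjusted permutation p = 0.0464). For platelets and neutrophils, which also travel in blood, 3 of 12 and 5 of 12 listed genes could be tested. The red cell membrane genes were mixed, with r = 0.51 for Slc4a1, 0.38 for Epb41 and 0.06 for Dmtn. For Ank1, Sptb and Tmod1 r was -0.39, -0.22 and -0.13. Ank1, Sptb and Tmod1 were highest in control clodronate mouse 2, as were the skeletal muscle markers. The part of muscle in the r of that list was not tested.

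**Figure D5:**
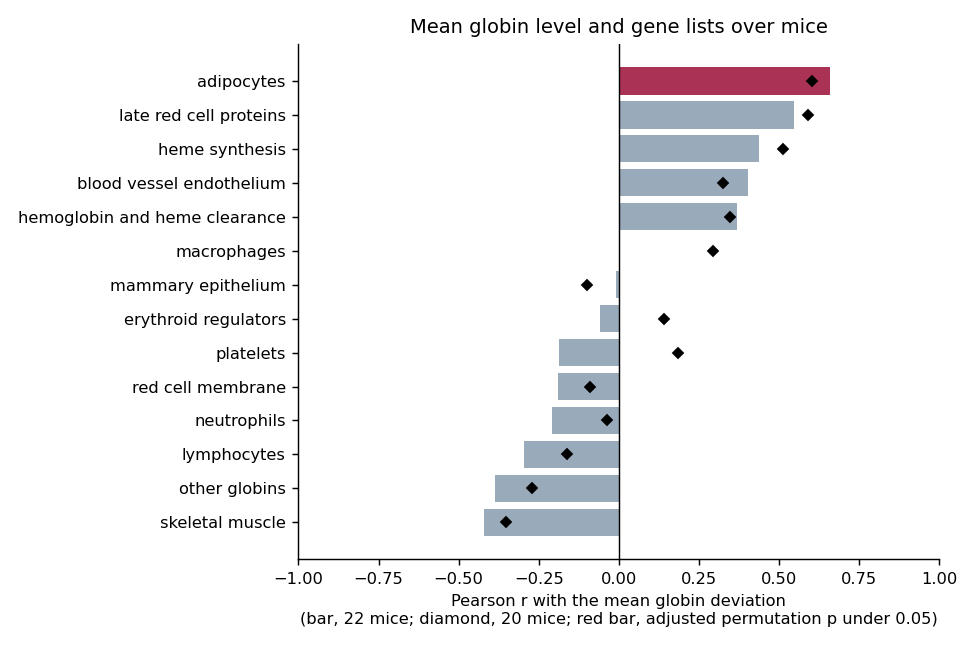
Pearson r (horizontal) of the mean globin deviation with the mean deviation of each of 14 gene lists (vertical) over 22 mice (bars) and without the 2 mice of most distant globin level (diamonds, 20 mice). Adipocytes (r = 0.658) are the list past an adjusted permutation p of 0.05, and skeletal muscle (-0.42) has the lowest r.

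Measures of the libraries were compared in the same way. The globin level had r = 0.05 with total reads, 0.22 with the share of reads assigned to genes, -0.16 with the share matching several places, 0.41 with the unmapped share, -0.49 with the ambiguous share and -0.52 with the share of reads outside genes. The last had an adjusted permutation p of 0.0609 for r over 6 measures and of 0.0479 for rho (-0.557). Its part in the relations above was not tested.

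Over 22 mice, the genes other than the 5 whose deviations were most like the mean of the 4 globins included Uck1 (r = 0.868), Gpx4-ps2 (0.863), Pccb (0.824), BC031181 (0.820), mt-Nd4 (0.814), Fah (0.812), Oscp1 (0.806), Tmem184c (0.804) and Retn (0.802). Of the 15138 genes tested, 10 outside the 5 had r above 0.8, 78 had r above 0.7 and 727 had r above 0.5. Alas2 stood at 0.849, below Uck1 and Gpx4-ps2. Most opposite were Ddit4 (-0.789), Socs7 (-0.785) and Stk24 (-0.782). Retn, an adipocyte hormone, ran from 292 to 1197 CPM. The spread of its deviations was 0.45, against 0.66 for Hbb-bs (SD, log2). Ddit4, a stress-induced inhibitor of growth signalling, ran from 18.8 to 78.0 CPM. Gpx4-ps2 is a pseudogene that shares sequence with its parent, so its level is uncertain. These values of r describe 22 mice, whose genes share libraries and scale.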

How the data were processed

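Gene expression was measured in mammary tissue of 22 mice by QuantSeq 3′ FWD sequencing. Per the labels, the authors mapped reads to the mouse genome (STAR 2.5.3a and GRCm38 in the submitters' processing notes) and deposited a signal per gene in CPM. The deposited CPM signal is relative to all reads, the classes of unassigned reads included, and every value below 1 was set to 1. The counting method and annotation are not given in the sources used here. Because reads below the floor are lost, count models were not used.

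Rows that name no gene were left out, and for the 106 repeated symbols, none a hemoglobin gene, the row of highest mean was used. Whole reads were recovered from the steps between values, within 0.05 reads. Values were tested as log2(CPM + 1), a scale that understates changes of low genes, by limma 3.58.1 (R 4.3.3), fitting a mean for each of 4 groups with moderated variances that follow expression, and Benjamini-Hochberg adjustment over the 15138 genes that exceeded 1 CPM in 5 mice or more. Each limma p-value in the text comes from that fit. Correlations are of deviations from group means, with 100000 permutations, in Python 3.11.15 (numpy 2.4.6, pandas 2.3.3). Promoter sequences are those of RefSeq on GRCm38.p6, where all 5 genes matched by symbol, and gene positions those of GENCODE M21. Both scripts were tested on simulated data.

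The genes and the 14 gene lists were chosen with earlier results of these data known. Named beside the 5 genes were, from 5 red cell and heme lists, the 3 tested genes of highest mean, the 10 genes most like the globins over mice (1 of them is not reported here) and the 3 most opposite, and genes of the lists at or near the floor or at the ends of a range, which were chosen after their values were seen. Replicate numbers in the labels belong to different mice and did not pair them. Alternatives were other pseudocounts, filters, scalings and variance models, a replicate block, only the groups compared, and leaving out each mouse. The contrasts averaged over a factor and the fits without the 5 mice of high lymphocyte markers were added after seeing the data. The p-values measure the spread between mice of 1 experiment.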

Additional observations from a re-analysis of the deposited data

Results flagged for a closer look

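Of 10 measures in 4 groups each (40 groups), 5 held a mouse set far apart from the others of its group by Dixon's ratio, where chance flags about 1 in 20 groups, or 2 of 40. Since the measures follow each other, the 5 are not independent. In wheel clodronate mice, mouse 1 stood apart for the 4 globins summed, at 12.39 on the log2(CPM + 1) scale against 11.18 in the next mouse. The same mouse stood apart for Hba-a1 (10.08 against 9.05), Hbb-bs (11.52 against 10.36) and Hbb-bt (9.31 against 8.05). In the same group, mouse 2 stood apart in the ratio of alpha to beta genes, at 0.648 against 0.510 in the next mouse.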

How the results depend on the processing

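No hemoglobin gene passed the adjusted p under any of the alternatives run, and the lowest adjusted p from limma was 0.311 (Alas2, clodronate against PBS averaged over both activities, without the 5 mice of high lymphocyte markers). Of 405 member differences recomputed, 389 kept their direction and 16 turned; without 1 mouse, 504 of 550 kept it and 46 turned. For clodronate in control mice, Hba-a1 turned to 0.091 with upper-quartile scaling, 0.00181 with assigned reads, 0.00353 with assigned reads other than globins, 0.042 with the replicate block and 0.021 without the mice of high lymphocyte markers. For the wheel with clodronate, Hba-a2 turned to -0.00638 with upper-quartile scaling and Alas2 to 0.060 with assigned reads, 0.060 with those other than globins and 0.64 without the mice of high lymphocyte markers. Without those mice, the wheel with PBS gave 0.042 for Hbb-bt and 0.092 for Alas2, and the wheel averaged over liposomes gave 0.27, 0.24, 0.15, 0.24 and 0.37 for Hba-a1, Hba-a2, Hbb-bs, Hbb-bt and Alas2. Among wheel clodronate mice, that fit keeps mice 1 and 2, whose mean globin deviations from the full group were 1.04 and -0.17. Those of mice 3, 4 and 5, left out, were -0.42, -0.25 and -0.20. The cause of the turns was not tested.

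Counts of genes past the adjusted p were low and moved with the setting. For clodronate in wheel mice the count of 1 became 3 with a pseudocount of 5, 0 for genes averaging 5 CPM or more, 4 with no filter, 3 with upper-quartile scaling, 2 with either scaling to assigned reads, 2 with no variance trend, 0 with only the groups compared, 0 with the replicate block and 14 without the mice of high lymphocyte markers. For the wheel with clodronate the count of 1 became 0 for genes averaging 5 CPM or more, 3 with no filter, 0 with only the groups compared, 0 with the block and 12 without the mice of high lymphocyte markers. For clodronate averaged over activities the count of 31 became 54 for genes averaging 5 CPM or more, 12 with upper-quartile scaling, 16 with assigned reads, 15 with those other than globins, 20 with no variance trend, 11 with the block and 0 without the mice of high lymphocyte markers. With no filter the interaction and the averaged wheel contrast had 2 each. No scaling moved the median of all genes by over 0.1. Of the gene lists, 1 passed the adjusted permutation p, 0 with the group means left in, 2 without the 2 mice farthest from the median and 3 without the mice of high lymphocyte markers. All 50 recomputed correlations of member pairs kept their side of the threshold.

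Leaving out each mouse in turn turned a direction or moved a count in these ranges, given from lowest to highest. For the wheel with PBS the difference was Alas2 -0.61 to 0.0027. For the wheel with clodronate 0 to 236 genes passed (most without wheel clodronate mouse 2), and the differences were Hba-a1 -0.26 to 0.45, Hba-a2 -0.26 to 0.34, Hbb-bs -0.21 to 0.34, Hbb-bt -0.24 to 0.33, Alas2 -0.30 to 0.22. For clodronate in control mice 0 to 38 genes passed (most without control clodronate mouse 1), and the differences were Hba-a1 -0.38 to 0.33, Hba-a2 -0.29 to 0.31, Hbb-bs -0.083 to 0.47. For clodronate in wheel mice 0 to 51 genes passed (most without wheel clodronate mouse 2, 0 without mouse 5). For the interaction the differences were Hba-a1 -0.013 to 0.70, Hba-a2 -0.036 to 0.56, Hbb-bt -0.016 to 0.55, Alas2 -0.023 to 0.60. For clodronate averaged over activities 9 (without control clodronate mouse 3) to 146 genes passed (without control clodronate mouse 1), and the differences were Hba-a1 -0.029 to 0.33, Hba-a2 -0.0091 to 0.29. For the wheel averaged over liposomes the differences were Hba-a1 -0.25 to 0.10, Hba-a2 -0.24 to 0.063, Hbb-bt -0.23 to 0.054.

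Replicate numbers belong to different mice. The correlation of deviations of same-numbered mice averaged -0.075, 0.181, 0.096 and 0.132 in the 4 comparisons of groups, and with the replicate block no hemoglobin gene passed. A count test on recovered reads was not run, since reads below the floor are lost. Fits of only the groups compared do not exist for the interaction and the averaged contrasts. Depth limits Alas2 most, with 51 reads in its lowest mouse.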
